A study of Arabidopsis thaliana with 6 samples.

Results

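Of the 454 loci in the deposited expression table, 70 had a mean level in *sr45* seedlings at least 2-fold that of wild-type Col-0 while their mean in the *sap18*-labelled libraries stayed under 2-fold. These 70 loci were chosen by those ratios of means, after 7 loci had been set aside by name, 6 of which also met both ratios. Both contrasts with Col-0 therefore chose the members, and their levels are given here as a description. Counts of loci called by a model fitted to the whole table stand beside the share of all loci called, and nothing about the members is read from them. A further 26 loci of the table met the 2-fold ratio in both lines.

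Messenger RNA was measured in whole Arabidopsis thaliana seedlings, in 6 libraries with 2 for each group, harvested after 11 days of growth on MS plates, with 16 h light and 8 h dark each day at 22 °C. Col-0 is the wild type, *sr45* is the *sr45-1* line with a T-DNA insertion in *SR45*, and *sap18* is a line with a T-DNA insertion in *SAP18*. Each mutant was represented by a single insertion line. All groups were stratified for 48 h at 4 °C, and no other treatment was applied to any group. The labels of the Col-0 and *sr45* libraries carry the word new, and those of the *sap18*-labelled libraries do not. These labels name no batch. Nothing in the labels states that the libraries of a group came from separate plantings, so the spread between them may be technical.

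SR45 is a serine/arginine-rich protein of the spliceosome that influences which splice sites are used, and plants without it grow and flower abnormally. Together with ACINUS and SAP18 it forms the ASAP complex, which associates with the exon junction complex deposited on spliced mRNA. SAP18 is also known from animal cells as a partner of histone deacetylase complexes. A change in the mRNA level of a gene in such a mutant can be direct or can follow from changes in other genes, and these data do not separate the possibilities.

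Levels are in cRPKM, reads per kilobase of mappable sequence scaled to library size, after quantile normalization across libraries. *SR45* mRNA stood at 23.1 and 19.4 cRPKM in Col-0, at 20.9 and 23.1 in the *sap18*-labelled libraries, and at 5.39 and 4.98 in *sr45*, a ratio of means of 0.244 for *sr45*. *SAP18* mRNA stood at 76.6 and 83.7 cRPKM in Col-0 and at 75.6 and 94.3 in *sr45*, but at 936 and 900 in the *sap18*-labelled libraries, 11.4-fold above Col-0. *SAP18* mRNA in this pair of libraries thus goes against a loss of the transcript, and their titles and genotype labels name sap18sr45 whereas their descriptions name *sap18*. Their *SR45* level overlapped that of Col-0. The pair is called the *sap18*-labelled libraries throughout, and every direction drawn from it carries this limit.

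All 454 loci of the table had a ratio of means of at least 2 or at most 0.5 in at least 1 line, so shares of the table are not shares of a transcriptome. Its median locus had a ratio to Col-0 of 0.482 in *sr45* and 0.752 in the *sap18*-labelled libraries. Read numbers were not given with the levels, so the counting precision of single values is unknown and no limit of detection is stated. In whole seedlings, fewer cells of a type and less RNA per cell cannot be told apart. Of the root markers listed for a check of tissue, 2 of 9 were in the table, *PER33* and *LAX3*. Both are members, and their summed level was 16.3 to 19.8 cRPKM in Col-0, 18.2 to 20.03 in the *sap18*-labelled libraries and 36.6 to 43.1 in *sr45*. Their rise in *sr45* was fixed by the rule that chose the members. The other root markers are absent from a table that holds only changed loci, so this sum is no measure of root tissue. None of the 6 shoot or 2 seed markers was in the table, so the labelled tissue could not be checked against shoot genes, and the part of tissue proportions in the results was not tested.

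Among the members the strongest single locus and a close copy of it lie in tandem on chromosome 4. Their upstream sequences are shown first because both are members, though the separate levels of such similar copies are uncertain. AT4G22513 (chr4:11854809-11855439, plus strand) and AT4G22517 (chr4:11856743-11857362, plus strand) encode small proteins of the bifunctional inhibitor and lipid-transfer family, and each has a single exon. Positions are those of the RefSeq annotation of TAIR10.1. The windows run from 250 to 21 bases before the annotated start, at chr4:11854559-11854788 and chr4:11856493-11856722, and the capitals mark the longest run of letters, 22 bases, that both windows share. The window of AT4G22517 lies inside AT4G22510, a protein-coding gene on the opposite strand that covers both loci.
AT4G22513: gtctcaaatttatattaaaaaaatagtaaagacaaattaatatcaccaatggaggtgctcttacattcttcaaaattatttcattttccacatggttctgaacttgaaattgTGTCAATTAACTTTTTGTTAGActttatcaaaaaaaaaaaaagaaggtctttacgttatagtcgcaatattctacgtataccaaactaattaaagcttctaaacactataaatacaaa
AT4G22517: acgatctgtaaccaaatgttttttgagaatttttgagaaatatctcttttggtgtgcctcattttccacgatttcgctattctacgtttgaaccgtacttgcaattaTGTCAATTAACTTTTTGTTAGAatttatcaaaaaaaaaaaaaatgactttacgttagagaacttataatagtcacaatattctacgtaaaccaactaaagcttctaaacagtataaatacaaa
Over the aligned part of the 250 bases upstream the pair was 85.7% identical, and over the gene spans it was 91.9% identical.

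A G-box, the letters CACGTG that bHLH and bZIP factors are known to bind, was searched for on both strands of the RefSeq windows from 250 bases before to 50 after each start. It occurred in 6 of 70 members, or 8.57%, beside 45 of the 450 loci of the table with a window and 7.68% of all nuclear protein-coding genes. The 6 members with the letters were AT4G15248, *RVE2*, AT5G52990, AT5G05250, AT3G56275 and *ATOPT3*. The 250 bases upstream of 3 of them are shown as the members of the clock and B-box list and as the one window with 2 copies, with the G-box in capitals: AT4G15248 (chr4:8708591-8708840, plus strand), *RVE2* (chr5:14753089-14753338, minus strand) and AT5G05250 (chr5:1558487-1558736, minus strand).
AT4G15248: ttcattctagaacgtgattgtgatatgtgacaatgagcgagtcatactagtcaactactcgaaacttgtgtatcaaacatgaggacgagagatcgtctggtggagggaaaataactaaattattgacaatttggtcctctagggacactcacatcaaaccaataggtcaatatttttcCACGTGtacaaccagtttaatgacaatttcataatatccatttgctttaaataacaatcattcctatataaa
RVE2: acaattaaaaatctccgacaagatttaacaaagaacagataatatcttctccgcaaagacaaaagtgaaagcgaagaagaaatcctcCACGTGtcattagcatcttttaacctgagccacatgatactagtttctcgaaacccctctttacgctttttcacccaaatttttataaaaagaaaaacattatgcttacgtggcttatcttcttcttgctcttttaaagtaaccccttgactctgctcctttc
AT5G05250: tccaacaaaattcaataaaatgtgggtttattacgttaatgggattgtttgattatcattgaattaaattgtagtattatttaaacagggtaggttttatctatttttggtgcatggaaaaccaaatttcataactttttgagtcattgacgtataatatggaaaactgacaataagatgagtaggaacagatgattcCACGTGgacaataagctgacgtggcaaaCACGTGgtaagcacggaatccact
The shorter core ACGTG, which every CACGTG contains, was found in 27.1% of the members, 30.4% of the table and 26.7% of all genes. For the E-box CANNTG, which also matches the G-box, the shares were 68.6%, 64.7% and 61.7%, and for the W-box core TTGAC they were 54.3%, 50.2% and 50.5%. The evening element AAAATATCT was found in 2.86%, 5.78% and 2.82%. These shares are a description with no test, and a match gives letters and not a site.

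Over the 70 members the ratio of *sr45* to Col-0 ran from 2.01 to 6.24 with a median of 2.32. Most were near the limit, with 44 members under 2.5, 14 at 3 or more and 7 at 4 or more. On the log2(cRPKM + 1) scale the median difference from Col-0 was 1.09 in *sr45* and 0.52 in the *sap18*-labelled libraries, with a median standard error of 0.18, beside medians of -0.96 and -0.38 over all loci. Both *sr45* libraries exceeded both Col-0 libraries for all 70 members, and for 29.3% of all loci of the table, a count that the rule makes near certain. All 4 ratios between single libraries were at least 2 for 30 members, against 11.7% of the loci of the table. By limma, with Benjamini-Hochberg adjustment over all 454 loci, 70 members were called higher in *sr45*, where 27.5% of the table was called, and nothing is read from that count because the same contrast chose them.

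**Figure D1:**
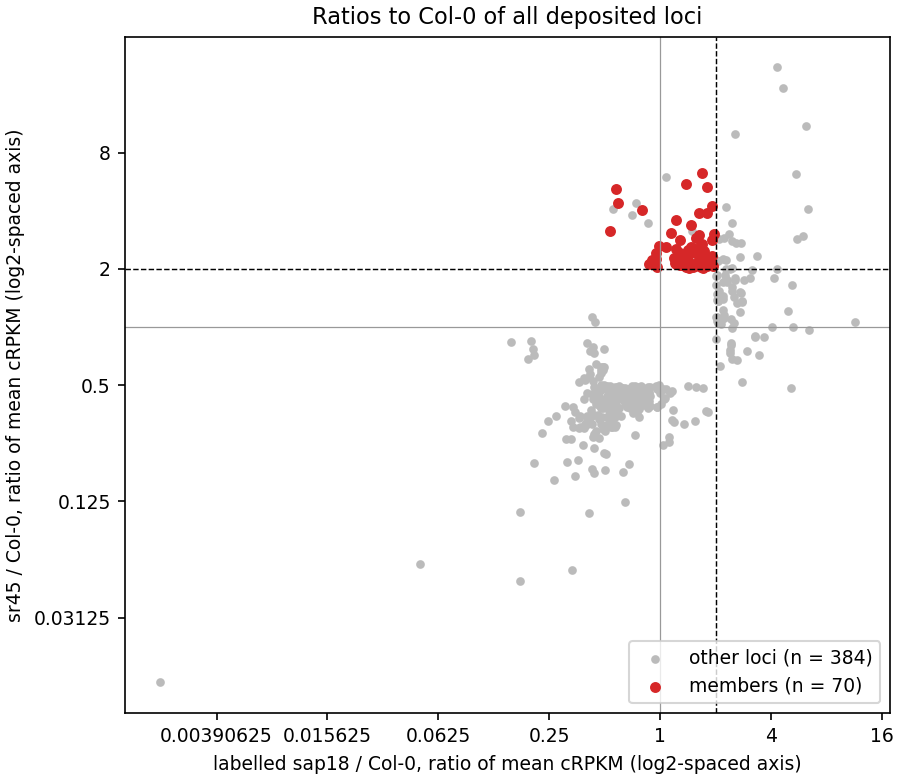
Each point is 1 of the 454 loci, placed by the ratio of its mean cRPKM to that of Col-0 in the *sap18*-labelled libraries (horizontal) and in *sr45* (vertical), both on log2-spaced axes; dashed lines mark 2 and thin grey lines mark 1. The 70 members, in red, lie above 2 in *sr45* and between 0.535 and 1.95 in the *sap18*-labelled libraries, most of them to the right of 1.

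The *sap18*-labelled libraries were not at the Col-0 level for most members. Their ratio to Col-0 ran from 0.535 to 1.95 with a median of 1.53, and 37 members stood at 1.5 or more, 23 between 1 and 1.5, and 10 under 1. Both *sap18*-labelled libraries were above both Col-0 libraries for 52 of the 70 members, beside 34.4% of all loci. They overlapped Col-0 for 15 members, beside 9.47% of all loci, and were below both for 3, beside 56.2%. By limma 37 members were called higher in the *sap18*-labelled libraries, against 29.3% of the table, and 3 were called lower, against 45.8%. The count of 37 was 16 without replicate 2 of the *sap18*-labelled libraries and 22 without replicate 1. A description as loci raised in *sr45* alone is therefore not what the levels show, and the members are better described by their rule.

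Between the mutants, the mean in *sr45* was 1.07- to 9.06-fold that in the *sap18*-labelled libraries, with a median of 1.63. Both *sr45* libraries were above both *sap18*-labelled libraries for 65 members and for 24.4% of all loci. After the mutants were rescaled on the loci past 2-fold in the other mutant alone, the mean in *sr45* was at or under that in the *sap18*-labelled libraries for 10 members. The 5 members whose libraries overlapped were AT1G49470, *AMT2*, *ATEXT4*, *EMB975* and AT2G47485. By limma 43 members were called higher in *sr45* than in the *sap18*-labelled libraries, against 14.1% of the table, and this count was 26 without replicate 1 and 24 without replicate 2 of the *sap18*-labelled libraries. The mean in *sr45* was higher for all 70 members by the rule itself, which set opposite limits over the same Col-0 mean, so nothing is read from these counts.

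Just inside the limit in *sr45* were *EXPA3* at a ratio of 2.01 and *GRP-5* at 2.03. The nearest loci outside it, among those under 2-fold in the *sap18*-labelled libraries, were AT2G45630 at 1.13 and *SAUR22* at 1.06, since a locus between these values would be in the table only through a low level in the *sap18*-labelled libraries. On the other limit *KCS17* at 1.95 and AT2G47485 at 1.94 were just inside, and AT4G01870 at 2.01 and *SCL31* at 2.06 just outside. The members at this limit are thus separated from loci of similar levels in both lines by a small step.

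Levels in Col-0 were low for many members, with a mean under 5 cRPKM for 31 of 70 and above 50 for 6. Of all 454 loci of the table, 77 had a Col-0 mean under 5 cRPKM, so low levels were more common among the members. Replicates differed by more than 1.5-fold for 9 members in Col-0, 4 in the *sap18*-labelled libraries and 9 in *sr45*, and by at most 4.28-fold. Leaving out each library in turn, 29 members met the rule in all 6 settings and 41 dropped out in at least 1. The 29 included 9 of the 14 members with a ratio of at least 3.

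The 6 loci with lipid-related products formed the group with the highest single ratio, and 5 of them belong to the lipid-transfer family, small secreted proteins that bind lipids and are known from the epidermis and cuticle. AT4G22513 stood at 4.16 and 5.04 cRPKM in Col-0, 7.43 and 8.05 in the *sap18*-labelled libraries and 21.4 and 36.1 in *sr45*, ratios of 6.24 in *sr45* and 1.68 in the *sap18*-labelled libraries. AT4G22517 stood at 6.51 and 8.77, 12.0 and 12.9, and 22.7 and 22.9 in the same order, a ratio of 2.98 in *sr45*. AT4G22520, the next gene 1251 bp downstream, stood at 10.8 and 6.87, 12.9 and 9.67, and 22.3 and 20.1, a ratio of 2.40. In all 3 loci the *sr45* libraries were the highest pair, and the *sap18*-labelled libraries lay between for the first 2 and overlapped Col-0 for AT4G22520. AT4G22520 was 72.3% and 72.8% identical to the other copies over the aligned gene span. How reads shared by such similar copies were handled was not checked here, so the separate levels of AT4G22513 and AT4G22517 are uncertain. Both also lie wholly inside AT4G22510, and AT4G22520 inside AT4G22530, each time on the opposite strand. The kit was stranded, but whether the counting used strand is not given in the sources used here, so the reads of the overlapping partners may be mixed.

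**Figure D2:**
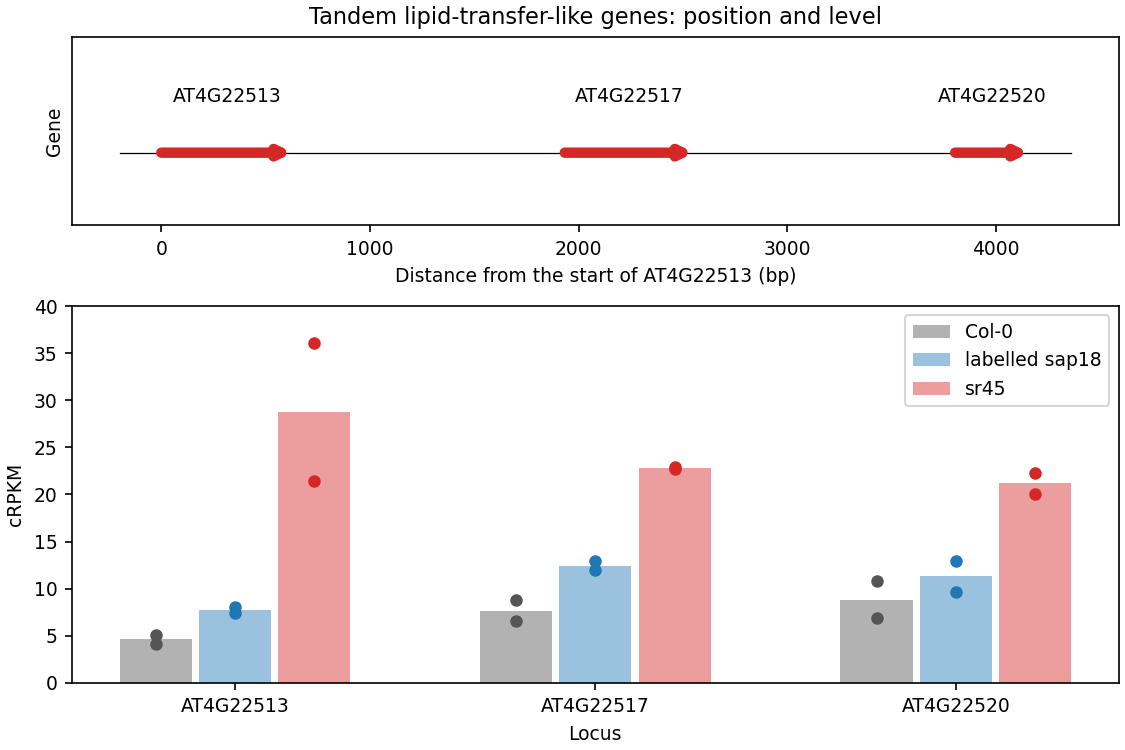
The upper panel places the 3 tandem genes of chromosome 4 by distance in bp from the start of AT4G22513, with arrows in the direction of transcription; the lower panel gives cRPKM per library (points) and the mean of the 2 libraries (bars) for Col-0, the *sap18*-labelled libraries and *sr45*. The *sr45* points lie between 20.1 and 36.1 and the Col-0 points between 4.16 and 10.8.

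*LTP1* and *LTP2*, classical lipid transfer proteins, are neighbours on chromosome 2 with 890 bp between them. *LTP1* (chr2:16130290-16131240) had the highest level of any member, at 891 and 957 cRPKM in Col-0, 1139 and 1122 in the *sap18*-labelled libraries and 2010 and 1909 in *sr45*, a ratio of 2.12. *LTP2* (chr2:16128176-16129399) stood at 21.4 and 26.5, 35.5 and 56.0, and 71.1 and 63.7, a ratio of 2.81. For both genes the 3 groups did not overlap, with *sr45* the highest and the *sap18*-labelled libraries in the middle. They were 86.4% identical over the aligned span, and how shared reads were handled was not checked here. The separate level of *LTP2*, the lower of the pair, is therefore uncertain. *KCS17*, named *KCS2* in RefSeq and coding for a 3-ketoacyl-CoA synthase that lengthens fatty acids, stood at 2.25 and 2.79 cRPKM in Col-0, 4.92 in each *sap18*-labelled library and 8.72 and 6.49 in *sr45*. It overlaps a non-coding RNA on the other strand over 2302 bp. In the list of 32 lipid transfer proteins and fatty acid elongases 7 loci were in the table, 6 of them members. Limma called 6 higher, all of them the members that this contrast chose, and 1 lower in *sr45*, and 4 higher in the *sap18*-labelled libraries. Here and for the lists that follow, the shares of all loci called were 27.5% higher and 61% lower in *sr45*, and 29.3% higher and 45.8% lower in the *sap18*-labelled libraries, and members of a list were called higher in *sr45* by their choice.

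The 10 cell wall genes had a narrow range of *sr45* ratios, 2.01 to 2.43. Both *sap18*-labelled libraries were above both Col-0 libraries for 9 of them, beside 52 of all 70 members and 34.4% of all loci. *GRP3*, a glycine-rich wall protein, stood at 310 and 357 cRPKM in Col-0, 559 and 583 in the *sap18*-labelled libraries and 693 and 700 in *sr45*, a ratio of 2.09 in *sr45* and 1.71 in the *sap18*-labelled libraries. Expansins loosen the wall as cells grow, and *EXPA11* stood at 23.5 and 26.6, 39.5 and 42.6, and 53.1 and 51.3 cRPKM in the same order. *EXPA3* stood at 49.5 and 54.5, 72.1 and 77.6, and 108 and 101. In these 3 genes the groups were in the same order, Col-0, the *sap18*-labelled libraries and *sr45*, without overlap. *XTH17*, which cuts and rejoins xyloglucan, stood at 12.3 and 11.3, 21.5 and 19.8, and 24.6 and 29.3. The extensin gene *ATEXT4* stood at 45.5 and 53.4, 65.1 and 104, and 121 and 91.6, so that *sr45* and the *sap18*-labelled libraries overlapped. *GRP-5* stood at 27.0 and 23.1, 44.0 and 41.5, and 52.2 and 49.4. Over the 10 cell wall genes the median ratio of *sr45* to the *sap18*-labelled libraries was 1.35.

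*PER33*, a class III peroxidase of the wall, was the exception, at 12.5 and 15.8 cRPKM in Col-0, 12.3 and 13.2 in the *sap18*-labelled libraries and 28.6 and 34.3 in *sr45*. Its *sr45* ratio was 2.22 and the *sap18*-labelled libraries overlapped Col-0. *CAD9*, of the cinnamyl alcohol dehydrogenase family whose members act in lignin synthesis, the pectin lyase-like AT1G60590 and the extensin-like AT3G16660 had *sr45* ratios of 2.14, 2.30 and 2.43. Of 87 genes listed for wall loosening and structure 11 were in the table and 6 were members, and limma called 7 higher and 3 lower in *sr45* and 9 higher and 1 lower in the *sap18*-labelled libraries.

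Among 9 transcriptional regulators, 6 had all single-library ratios in *sr45* at 2 or more, beside 30 of all 70 members and 11.7% of all loci. AT4G15248 (chr4:8708841-8709482), named *BBX30* in RefSeq and coding for a small B-box zinc finger protein, stood at 2.41 and 2.06 cRPKM in Col-0, 1.29 and 1.36 in the *sap18*-labelled libraries and 9.51 and 10.05 in *sr45*. Its ratio was 4.37 in *sr45* and 0.593 in the *sap18*-labelled libraries, which were below both Col-0 libraries. *RVE2* (chr5:14751344-14753088), a MYB-like factor related to the core clock factors, stood at 13.8 and 18.3, 21.7 and 19.6, and 38.6 and 51.7, ratios of 2.81 and 1.29. These were the only loci of the table among 16 listed clock and B-box genes, and their upstream windows with the G-box letters are those printed above.

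*BHLH101*, one of the subgroup of bHLH factors induced when iron is short, stood at 3.501 and 4.89 cRPKM in Col-0, 4.54 and 5.05 in the *sap18*-labelled libraries and 12.5 and 13.2 in *sr45*, ratios of 3.07 and 1.14. The *sap18*-labelled libraries overlapped Col-0. Of 29 listed genes of iron deficiency 9 were in the table and 3 were members, namely *BHLH101*, *ATOPT3* and AT2G30766, while 5 more had been set aside by name. By limma 8 of the 9 were called higher and 0 lower in *sr45*, beside 27.5% and 61% of all loci, and 3 higher and 2 lower in the *sap18*-labelled libraries, beside 29.3% and 45.8%. The 3 members were chosen on this contrast, and the 5 set aside met the same ratios. The exception in *sr45* was *IRT1*, the main iron importer of the root, with a ratio of 0.999 in *sr45* and 4.04 in the *sap18*-labelled libraries. *ATOPT3*, a transporter that loads iron into the phloem, stood at 21.4 and 18.9, 30.9 and 29.8, and 48.7 and 33.9 cRPKM, ratios of 2.05 and 1.505.

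*IAA29*, an Aux/IAA repressor of auxin responses, stood at 6.88 and 6.66 cRPKM in Col-0, 7.21 and 6.10 in the *sap18*-labelled libraries and 15.2 and 20.5 in *sr45*, ratios of 2.64 and 0.983. *LAX3*, an auxin influx carrier, stood at 3.82 and 4.01, 5.89 and 6.84, and 7.93 and 8.82, ratios of 2.14 and 1.63. The auxin genes thus differed in the *sap18*-labelled libraries, which overlapped Col-0 for *IAA29* and were above it for *LAX3*. They were the 2 loci of the table among 18 listed auxin genes.

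*MYB51*, a regulator of indole glucosinolate synthesis, stood at 3.31 and 3.96 cRPKM in Col-0, 6.14 and 5.97 in the *sap18*-labelled libraries and 8.93 and 10.4 in *sr45*, a ratio of 2.65. *WRKY60* stood at 2.93 and 2.67, 3.79 and 4.02, and 7.34 and 6.26, a ratio of 2.43. Both factors had the groups in the order Col-0, the *sap18*-labelled libraries and *sr45*. *ERF039* stood at 2.73 and 3.75, 5.25 and 6.32, and 7.38 and 6.51, and *NAC13*, which acts in mitochondrial stress signalling, at 3.74 and 3.20, 4.02 and 4.89, and 7.09 and 7.47. Their *sr45* ratios were 2.14 and 2.10. Of 293 listed defence and stress factors 13 were in the table and 4 were members, and limma called 6 higher and 2 lower in *sr45* and 10 higher and 1 lower in the *sap18*-labelled libraries.

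Genes known for responses to drought and abscisic acid gave 3 members. *RD22*, a BURP-domain protein induced by dehydration through abscisic acid, stood at 158 and 168 cRPKM in Col-0, 248 and 271 in the *sap18*-labelled libraries and 386 and 313 in *sr45*, ratios of 2.15 and 1.59. *ATHB-7*, a homeodomain leucine zipper factor of the same response, stood at 13.2 and 21.1, 22.9 and 23.3, and 36.3 and 37.9, and *MARD1* at 24.1 and 24.7, 32.9 and 30.2, and 51.5 and 50.9. In each of the 3 genes the *sap18*-labelled libraries lay between Col-0 and *sr45*. Of 21 listed genes 5 were in the table, with 4 called higher and 1 lower in *sr45* and 1 higher in the *sap18*-labelled libraries. The non-member called higher in *sr45* was *GOLS2*, which met the same ratios, at 3.15 and 1.49, and had been set aside by name. The one lower in *sr45* was *COR15A*, a cold- and drought-induced chloroplast protein, with a ratio of 0.435.

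Receptor-like proteins and peptide signals were represented by 4 members. *PSK5*, a precursor of the growth peptide phytosulfokine, stood at 6.91 and 6.96 cRPKM in Col-0, 5.37 and 7.83 in the *sap18*-labelled libraries and 20.3 and 13.4 in *sr45*, ratios of 2.43 and 0.952. *MAKR1*, a membrane-associated kinase regulator, stood at 2.23 and 3.80, 5.46 and 4.97, and 8.45 and 6.55. *PSK5* thus overlapped Col-0 in the *sap18*-labelled libraries and *MAKR1* was above it. The receptor-like proteins *AtRLP19* and *AtRLP27*, which lack a kinase domain, stood at 34.1 and 36.9 and at 10.5 and 15.7 cRPKM in *sr45*, ratios of 2.17 and 2.16, with Col-0 at 16.8 and 15.9 and at 6.82 and 5.31. In the *sap18*-labelled libraries they stood at 24.1 and 29.0 and at 7.19 and 9.16. Of 96 listed genes 5 were in the table, and 5 were called higher in *sr45* and 3 in the *sap18*-labelled libraries. AT1G11700, annotated as a senescence regulator of unknown function, had a ratio of 2.53 in *sr45*.

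In all, 7 members encode membrane transporters. For 6 of them both *sap18*-labelled libraries were above both Col-0 libraries, beside 52 of all 70 members and 34.4% of all loci. *STP3*, a monosaccharide and proton symporter, stood at 3.11 and 3.26 cRPKM in Col-0, 4.94 and 5.04 in the *sap18*-labelled libraries and 11.1 and 7.35 in *sr45*, ratios of 2.90 and 1.57. *ABCC3*, an ABC transporter of the multidrug resistance type, stood at 4.24 and 4.23, 7.36 and 6.44, and 10.1 in each *sr45* library. In both genes the groups were in the order Col-0, the *sap18*-labelled libraries and *sr45*. *AMT2*, an ammonium transporter, stood at 3.37 and 3.64, 6.29 and 5.46, and 9.48 and 5.67, so its lower *sr45* library lay within the range of the *sap18*-labelled libraries. *CLT3*, whose family moves glutathione and its precursor across the plastid envelope, stood at 11.6 and 10.1, 16.4 and 18.9, and 22.0 and 23.6. The MATE efflux protein AT5G17700 overlapped Col-0 in the *sap18*-labelled libraries, at a ratio of 1.22, against 2.53 in *sr45*. Of 185 listed transporters 6 were in the table and 5 were members, with 5 called higher and 1 lower in *sr45* and 5 called higher in the *sap18*-labelled libraries.

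**Figure D3:**
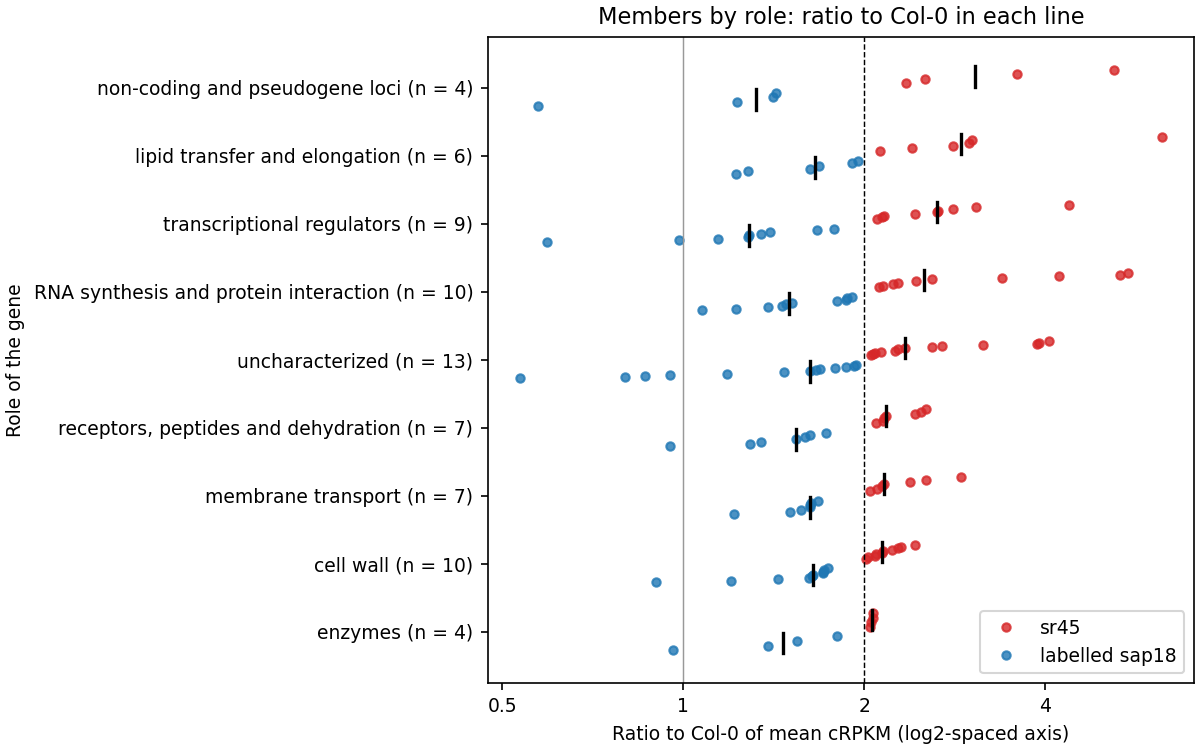
Each point is a member, placed by the ratio of its mean cRPKM to that of Col-0 in *sr45* (red) and in the *sap18*-labelled libraries (blue) on a log2-spaced axis, with members grouped by role and black ticks at the group medians. All red points lie right of the dashed line at 2 by the rule, the 10 cell wall genes span 2.01 to 2.43, and 10 blue points in all lie left of 1, 7 of which pass 1 when the mutants are rescaled.

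Another 10 members were placed together under RNA synthesis and protein interaction, and several had very low Col-0 levels. The group is mixed, since it also holds the SNARE-like AT5G52990 and the ENTH/ANTH/VHS protein AT1G33340, and its name states no shared function. AT3G58270 (chr3:21575749-21577845), a TRAF-like domain protein, stood at 1.01 and 1.33 cRPKM in Col-0, 1.33 and 1.91 in the *sap18*-labelled libraries and 6.21 and 6.60 in *sr45*, ratios of 5.48 and 1.39. AT3G49400 (chr3:18319060-18324624), a WD40 repeat protein, stood at 1.79 and 1.15, 2.55 and 2.74, and 8.69 and 6.99, ratios of 5.33 and 1.799. For both, the *sr45* libraries were above the other 4 without overlap. *NRPC1* (chr5:24173259-24183641), the largest subunit of RNA polymerase III, stood at 1.93 and 0.804, 2.49 and 2.72, and 5.57 and 5.98, ratios of 4.22 and 1.91. Without replicate 1 of Col-0 these ratios were 7.18 and 3.24, and *NRPC1* no longer met the rule. The F-box protein AT1G78750 had a ratio of 3.39, and the remaining 6, among them *EMB975* and the mitochondrial termination factor AT1G62085, ranged from 2.12 to 2.59. AT1G62085 had the widest gap between its *sr45* libraries, 5.87 and 10.01 cRPKM, a 1.70-fold difference.

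A further 4 members encode other enzymes, *CYP71B13*, *GRXC6*, the cysteine proteinase AT2G27420 and AT1G12010, for which the RefSeq note gives an activity in the last step of ethylene synthesis. Their *sr45* ratios lay between 2.04 and 2.07. None had all single-library ratios at 2 or more, beside 30 of all 70 members and 11.7% of all loci. AT1G12010 overlapped Col-0 in the *sap18*-labelled libraries, at a ratio of 0.961.

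The annotation gives 4 loci as non-coding or pseudogenes. AT4G04293 (chr4:2076832-2077361) had the widest contrast between the mutants, at 5.06 and 7.003 cRPKM in Col-0, 3.57 and 3.35 in the *sap18*-labelled libraries and 27.7 and 34.97 in *sr45*. Its ratio was 5.19 in *sr45* and 0.573 in the *sap18*-labelled libraries, with no overlap between any of the groups. AT2G13420 stood at 0.826 and 2.99, 2.15 and 2.54, and 6.81 and 6.91 cRPKM, a ratio of 3.59 in *sr45* that was 2.29 without replicate 1 and 8.31 without replicate 2 of Col-0. In the *sap18*-labelled libraries its ratio of 1.23 was 0.783 without replicate 1 and 2.83 without replicate 2 of Col-0. It overlaps 2 genes on the other strand. AT5G48412 had a ratio of 2.35. AT3G56275 stood at 3.23 and 3.92, 5.48 and 4.70, and 7.78 and 10.2, and lies 3765 bp from the member AT3G56260, which stood at 2.17 and 2.83, 2.54 and 2.23, and 6.18 and 5.07. The neighbours had *sr45* ratios of 2.52 and 2.25, and 384 of 512 aligned bases of their gene spans were identical.

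The other 13 members have product names in RefSeq that state no function, AT2G30766 of the iron deficiency list among them. Of the 13, 6 had all single-library ratios at 2 or more, beside 30 of all 70 members and 11.7% of all loci. AT2G14247 (chr2:6034282-6035375) stood at 9.54 and 15.7 cRPKM in Col-0, 10.9 and 9.28 in the *sap18*-labelled libraries and 54.8 and 47.7 in *sr45*, ratios of 4.06 and 0.801. AT2G30766 (chr2:13107583-13110480) stood at 37.4 and 27.3, 50.2 and 55.2, and 121 and 132, ratios of 3.91 and 1.63. The first overlapped Col-0 in the *sap18*-labelled libraries and the second was above it. AT2G30766 overlaps AT2G30760 over 639 bp and *CYP71A13* over 572 bp on the other strand, and AT2G14247 overlaps a non-coding RNA over 233 bp. AT5G35480 (chr5:13687847-13689596) stood at 68.4 and 88.2, 46.0 and 37.8, and 205 and 288 cRPKM, ratios of 3.15 and 0.535, the lowest of any member in the *sap18*-labelled libraries. AT3G27900 stood at 2.82 and 0.658, 2.36 and 3.87, and 6.99 and 6.51, a ratio of 3.88 in *sr45*. Its Col-0 libraries differed by 4.28-fold, and the ratio was 10.2 without replicate 1 and 2.39 without replicate 2 of Col-0, with 4.73 and 1.104 in the *sap18*-labelled libraries. The *sr45* libraries were still above both others, while the size of the ratio rested on single Col-0 values. AT2G47485, at 5.77 and 5.93, 12.6 and 10.1, and 12.6 and 11.7, was the member with the smallest gap between the mutants, 1.07-fold. AT5G05250, whose window holds 2 G-box copies, stood at 12.6 and 14.1, 18.9 and 20.5, and 42.6 and 26.7, ratios of 2.59 and 1.47, with the groups in the order Col-0, the *sap18*-labelled libraries and *sr45*. The others had *sr45* ratios of 2.06 to 2.70.

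**Figure D4:**
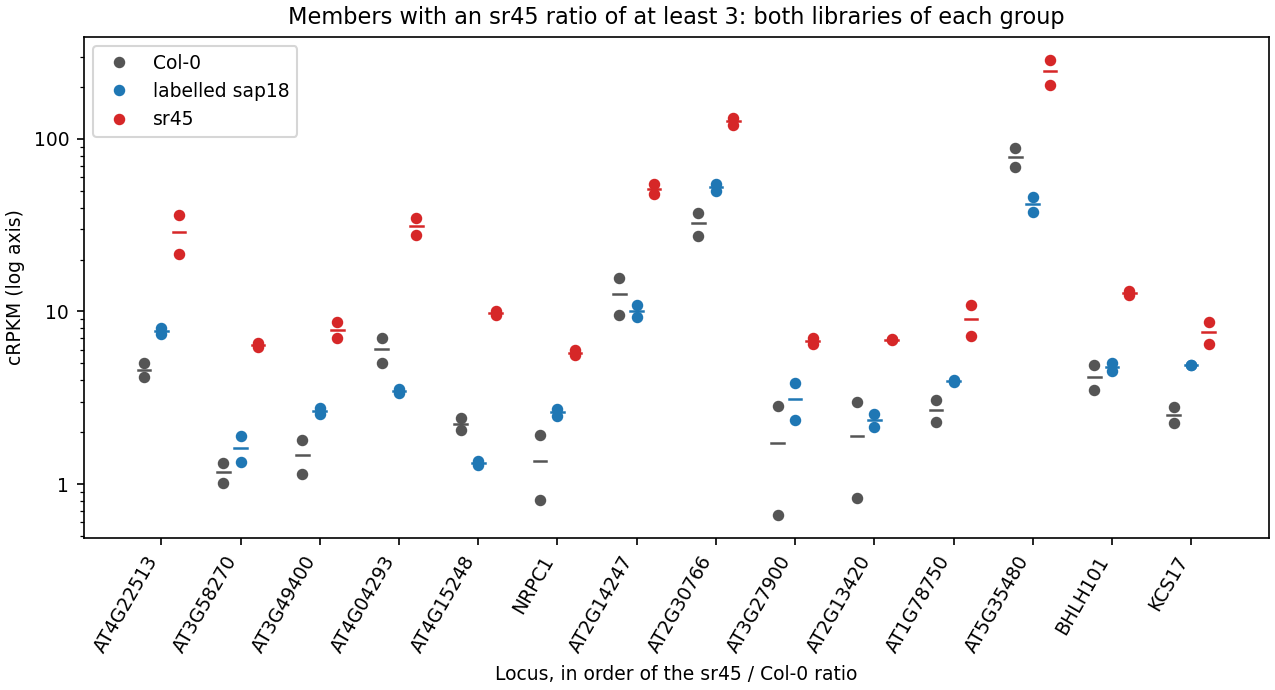
The 14 members with an *sr45* ratio of at least 3 are ordered from left to right by that ratio, with cRPKM on a log axis; points are single libraries of Col-0 (grey), the *sap18*-labelled libraries (blue) and *sr45* (red), and short lines are means of 2. The red points lie above all others at each locus, and the blue points lie below both grey points for AT4G04293, AT4G15248 and AT5G35480.

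In 10 members the mean of the *sap18*-labelled libraries was under that of Col-0, and in 3 it was under 0.75-fold, AT4G04293, AT4G15248 and AT5G35480. For these 3 the groups formed the order *sr45*, Col-0, *sap18*-labelled libraries without overlap. Of the 10, 5 also met the rule whichever library was left out. With the mutants rescaled so that the loci with all 4 ratios past 2-fold in the other mutant alone had a median log2 change of 0, 7 of the 10 were at 1 or more, and the ratios of the 3 were 0.799, 0.826 and 0.745.

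Features that the ratios did not use were taken from the RefSeq annotation. Of the 70 members 66 are protein-coding, and 21 of these, or 31.8%, have a single exon in each annotated transcript. The share was 17.3% of the protein-coding loci of the table, 6.50% of the 246 that were at or under 0.5-fold in *sr45*, 56.5% of the 23 that met the 2-fold ratio in both lines and 18.9% of all nuclear protein-coding genes. Counted in the transcript with most exons, the median was 2 exons in the members, 5 in the table and 8 in the loci at or under 0.5-fold, with gene lengths of 1751, 2343 and 2699.5 bp in the same order. At least 7 exons were found in 8 of the 66 members and in 140 of the 246. The members thus had fewer exons than the loci that were lower in *sr45*, and more than those at least 2-fold in both lines. These shares are a description, and gene length and level were not separated from exon number. The members lay on all 5 chromosomes, with 16, 17, 11, 10 and 16 from chromosome 1 to 5, beside 120, 88, 74, 77 and 91 loci of the table.

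**Figure D5:**
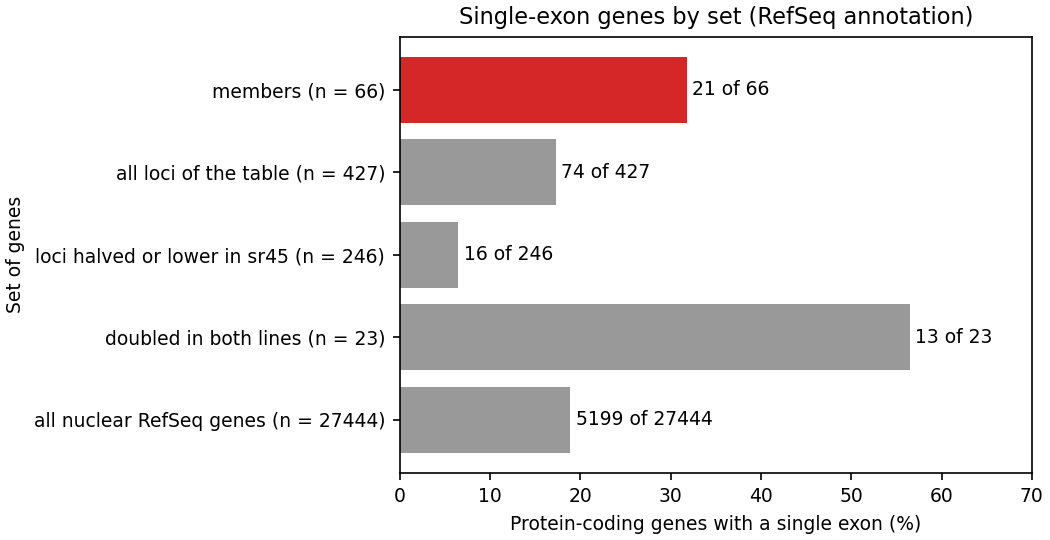
Bars, starting at 0, give the percentage of protein-coding genes with a single exon in the RefSeq annotation, for the members (red), all loci of the table, the loci at or under 0.5-fold in *sr45*, those at least 2-fold in both lines, and all nuclear genes, with counts beside each bar. The members, at 31.8%, lie between the loci at or under 0.5-fold, at 6.50%, and those at least 2-fold in both lines, at 56.5%.

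Of the 70 members 16 had another locus of the table within 20 kb, in 19 pairs, 5 of them between members. Within 20 kb of another member lay the 3 tandem genes, the *LTP1* and *LTP2* pair, and AT3G56260 with AT3G56275. Of the 14 pairs with a locus that is no member, the other locus had an *sr45* ratio of at least 2 in 1, of at most 0.5 in 8 and between these in 5. Over the table, 246 of the 427 protein-coding loci were at or under 0.5-fold in *sr45*, so nothing about the members is read from these counts. AT3G16660, at a ratio of 2.43, lies 3280 bp from AT3G16670, at 2.03 in *sr45* and 2.45 in the *sap18*-labelled libraries. The neighbours at or under 0.5-fold included AT2G25010, at 0.454 and 117 bp from *WRKY60*, at 2.43. They also included *MNS5*, at 0.246 and 3427 bp from AT1G27540, at 2.23. Altogether 16 of 70 members overlap another annotated gene, 15 of them only on the opposite strand and AT1G62085 on the same strand. Overlaps and neighbours within 20 kb were not counted for the other loci of the table. These counts therefore describe the members and give no comparison.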

How the data were processed

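The deposited table gave mRNA levels of 454 loci in 6 libraries of whole seedlings, 2 each of Col-0, *sr45* and the *sap18*-labelled libraries, and 0 columns were left without a sample. The authors made the cRPKM values, an RPKM per mappable position, with vast-tools 2.5 on Ensembl Plants 31 and quantile-normalized them. The build in the submitters' processing notes is TAIR10. The stated depth is 30M reads per sample, sequenced as pairs of 150 bases, but read numbers per locus were not analysed here, so only the spread between libraries shows the precision.

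Members were found by ratios of mean cRPKM. limma 3.58.1 in R 4.3.3 was fitted to log2(cRPKM + 1) over all loci and groups, with Benjamini-Hochberg adjustment at 0.05. The fit was also run on simulated data in which some loci were unchanged. All loci of the deposited table were chosen for a change, so that run gives no error rate for these calls. The pseudocount of 1 understates the difference of low loci. The members, the gene lists and the rule for named genes were chosen with earlier results of these data known. The rule named the targeted genes, the 10 highest *sr45* ratios, the 4 highest *sr45* levels, ratios under 0.75 in the *sap18*-labelled libraries, list members, members within 20 kb of another, and loci at the thresholds. Other members were named after their values were seen, to account for each role. RefSeq TAIR10.1 held 450 of the 454 loci and supplied positions, exons and sequences, and identity came from global alignment in Biopython 1.88 without penalty at the ends. The amino acid sequences of the members were not analysed here. Alternatives covered the pseudocount, the thresholds, the form of the ratio, a filter at 5 cRPKM, a rescaling of the mutants, a replicate block, a mean-variance trend and leaving out each library.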

Additional observations from a re-analysis of the deposited data

Results flagged for a closer look

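In 3 members the mutants stood on opposite sides of Col-0, with both *sr45* libraries above and both *sap18*-labelled libraries below both Col-0 libraries. The ratio of the *sap18*-labelled libraries to Col-0 was 0.573 for AT4G04293, 0.593 for AT4G15248 and 0.535 for AT5G35480, while their *sr45* ratios were 5.19, 4.37 and 3.15. On the log2(cRPKM + 1) scale *sr45* exceeded the *sap18*-labelled libraries by 2.85, 2.21 and 2.51, with standard errors of 0.19, 0.15 and 0.22 from limma. The rule that chose these loci used both contrasts, so the difference was not tested independently of that choice. Over all loci, 29.3% had both *sr45* libraries above and 56.2% both *sap18*-labelled libraries below Col-0, and the share with both was not counted. Loci set aside by name also had means on opposite sides of Col-0, so this is not particular to the 3. They were *ORG3* (ratios of 4.07 and 0.558), *ORG2* (4.37 and 0.742), AT1G47395 (3.78 and 0.707) and AT1G47400 (3.46 and 0.857).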

How the results depend on the processing

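The rule held 70 members as applied, and 30 when all 4 library ratios of *sr45* had to reach 2, 26 at a limit of 2.5 in *sr45*, 33 at a limit of 1.5 in the *sap18*-labelled libraries, and 29 after the mutants were rescaled. The rescaling used loci past 2-fold in the other mutant alone and removed median log2 shifts of -0.16 in *sr45* (46 loci) and -0.48 in the *sap18*-labelled libraries (145 loci), which may be real changes. The cause of these differences was not tested. The count stayed within 1.5-fold at 57 with 1 cRPKM added, 68 with geometric means and 55 to 70 when each library was left out. By limma all 70 members, or 60 of the 60 kept by the filter, were called higher in *sr45* under each alternative, which says nothing of stability because that contrast chose them. The 37 members called higher in the *sap18*-labelled libraries became 58 after rescaling and 16 to 43 when each library was left out. The 43 called higher in *sr45* than in the *sap18*-labelled libraries became 26 after rescaling and 24 to 44 when each library was left out. Replicate numbers shared only a number, with correlations of deviations of -0.035, -0.106 and 0.080 between groups, and with a replicate block the 3 limma counts were 70, 37 and 41. Each of the 140 ratios of single members to Col-0 was set against the spread of its mutant pair alone, and the spread of Col-0 did not enter. By that measure 110 moved by more than this spread after rescaling, 66 without replicate 1 and 72 without replicate 2 of Col-0. With 1 cRPKM added 38 moved, and with geometric means 8. Leaving out a mutant library cannot move a ratio beyond the spread of its own pair. Where 1 library was left out of an arm, limma took the lone sample to vary like the other groups. Values rest on 2 libraries a group of unknown depth, and 31 of 70 members had a Col-0 mean under 5 cRPKM, beside 77 of all 454 loci.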
